A study of Homo sapiens with 6 samples.

Results

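The 94 genes of distal chromosome 6 described here lie from position 150000000 to the end of the long arm in GRCh37, in the cytogenetic bands 6q25 to 6q27. They were selected on their counts, since each had 10 or more reverse-stranded counts in every sample, and they are 94 of the 17480 genes that reached this count in all samples and of the 57820 genes in the tables. The region itself was chosen by its lower RNA in ARID1A-KO than in WT samples, so the size of its shift is given below as a description and supports nothing on its own. The samples were 3 untreated WT and 3 untreated ARID1A-KO cultures of AID-DIvA cells, numbered 3, 4 and 5 in each genotype. AID-DIvA is an osteosarcoma line with a switchable AsiSI nuclease that cuts the genome at its recognition sites, and it was left switched off here. ARID1A-KO cells were derived by CRISPR-Cas9 with guides against ARID1A, a DNA-binding subunit of the BAF chromatin remodelling complex, and were grown from clones. The clone behind the sequenced samples is not given in the sources used here, and nothing states that the replicates came from separate clones, so p-values measure only the spread between these samples. In bulk RNA, fewer cells of a type and less RNA per cell cannot be told apart.

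The distal part of the long arm of chromosome 6 is a mixed gene neighborhood rather than a single gene family. It holds a cluster of NKG2D ligands, the stress-induced surface proteins that natural killer cells recognize, and subunits of large assemblies whose other subunits are encoded elsewhere, among them TCP1 of the CCT chaperonin, PSMB1 of the proteasome and TBP, the TATA-binding protein. It also holds EZR, which encodes ezrin, the linker between the plasma membrane and actin, and QKI, an RNA-binding regulator of splicing. Most genes of such a region have promoters of their own.

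ARID1A itself was measured at 166, 178 and 177 CPM (normalized read count, TMM-scaled) in WT and at 25.1, 27.5 and 25.2 CPM in ARID1A-KO samples, which gave -2.74 on the log2 scale (SE 0.07, adjusted p = 9.66e-08, edgeR). Total reverse-stranded counts were 54512105 to 84088708 per sample. Of 8 osteoblast lineage markers, 5 had 1 TPM or more in every sample and SP7 stayed under 0.1 TPM in every sample. Their summed level was 858 to 953 TPM in WT and 529 to 565 TPM in ARID1A-KO samples, with SPARC, COL1A1 and ALPL called lower. Of 7 markers of epithelium, blood, endothelium, glia and muscle, EPCAM was the only one with 1 TPM or more in every sample (7.47 to 12.6 TPM), CD3E was at 0 in 5 of the 6 samples, and the sum was 10.3 to 14.4 TPM in WT and 13.8 to 14.7 TPM in ARID1A-KO samples. The part of these marker levels in the results below was not tested.

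Promoter windows of 4 genes are shown because the RNA of these genes moved in different ways. ZDHHC14 and SNX9 are neighbors on either side of a step in the region, EZR had the highest TPM of the region in WT samples, and RGS17 is 1 of the 2 genes called higher. The windows run from 250 bases before to 50 bases after the start, from RefSeq on GRCh38.p14, at chr6:157380940-157381239 (plus strand, ZDHHC14), chr6:157822996-157823295 (plus, SNX9), chr6:158818186-158818485 (minus, EZR) and chr6:153131233-153131532 (minus, RGS17). Capitals mark an AP-1 motif (TGANTCA) or an E-box (CANNTG) that was found on either strand.
ZDHHC14: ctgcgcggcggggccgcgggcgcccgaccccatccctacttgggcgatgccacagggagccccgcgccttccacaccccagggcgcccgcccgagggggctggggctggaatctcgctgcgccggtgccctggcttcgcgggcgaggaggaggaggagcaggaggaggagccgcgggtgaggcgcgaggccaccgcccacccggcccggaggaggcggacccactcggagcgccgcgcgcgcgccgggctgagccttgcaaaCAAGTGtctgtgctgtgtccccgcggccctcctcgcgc
SNX9: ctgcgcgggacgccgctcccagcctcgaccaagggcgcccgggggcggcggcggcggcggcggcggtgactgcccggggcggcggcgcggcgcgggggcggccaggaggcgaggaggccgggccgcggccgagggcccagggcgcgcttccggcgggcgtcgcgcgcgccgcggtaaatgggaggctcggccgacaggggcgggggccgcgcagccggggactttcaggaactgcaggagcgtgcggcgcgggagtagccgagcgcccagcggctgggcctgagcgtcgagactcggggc
EZR: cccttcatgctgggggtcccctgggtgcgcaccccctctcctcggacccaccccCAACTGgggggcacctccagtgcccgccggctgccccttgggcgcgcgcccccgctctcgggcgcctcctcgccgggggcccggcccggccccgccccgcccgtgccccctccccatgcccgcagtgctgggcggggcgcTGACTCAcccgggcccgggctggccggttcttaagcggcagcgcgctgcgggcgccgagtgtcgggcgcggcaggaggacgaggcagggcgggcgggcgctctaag
RGS17: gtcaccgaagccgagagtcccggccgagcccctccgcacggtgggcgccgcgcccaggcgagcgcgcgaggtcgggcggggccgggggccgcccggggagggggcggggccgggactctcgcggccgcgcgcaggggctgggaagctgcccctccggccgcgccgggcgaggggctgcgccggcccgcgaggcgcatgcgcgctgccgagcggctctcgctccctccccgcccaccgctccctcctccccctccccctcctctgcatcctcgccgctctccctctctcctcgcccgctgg
Each window is rich in G and C, with 77.3% in ZDHHC14, 82.3% in SNX9, 80% in EZR and 82% in RGS17. The ZDHHC14 window holds an E-box and the EZR window holds an AP-1 motif and an E-box, and the other two windows hold none of the motifs searched. Of the 94 genes, 69 matched the promoter table, with 107 windows. An AP-1 motif was found in 14.0% of these windows, against 7.71% of all 35116 windows, and it fell in 12 of the 69 genes. Among them are RAET1E, ULBP2, RAET1L, SYTL3, EZR and AGPAT4, which were called lower, and PCMT1, ULBP3 and PLEKHG1, which were not called. A link between the motif and the change in RNA was not tested. The CRE (TGACGTCA) was in 0 of the 107 windows against 1.85% of all windows, the TATA box (TATAAA) in 10.3% against 11.5%, and the E-box in 64.5% against 68.7%. These are matches of letters in a fixed window and not sites of binding.

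RNA from the region as a whole was lower in ARID1A-KO than in WT samples. The 94 genes took 0.537%, 0.550% and 0.522% of all counts in WT and 0.331%, 0.331% and 0.321% in ARID1A-KO samples, with no overlap. Summed per length, they came to 5370, 5475 and 5229 TPM in WT and 3198, 3157 and 3087 TPM in ARID1A-KO samples. The log2 fold change was negative for 78 genes and positive for 16. Its median was -0.49, which is 71.0% of the WT level, with quartiles at -0.99 and -0.15 and a range from -2.25 to 0.69. The median over all 19599 genes tested was 0.01 and that over the 869 other genes of chromosome 6 was -0.01.

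By edgeR's quasi-likelihood test, adjusted over all genes tested, 53 of the 94 genes were called lower, where 18.4% of all genes were, and 2 were called higher, where 17.8% of all genes were. In 64 genes every ARID1A-KO sample lay below every WT sample, which held for 24.8% of all genes tested. A decrease of 2-fold or more was found in 23 of the 53 genes. Because the region was chosen on this contrast, nothing is read from these counts against the background. The median was -0.50 over the 69 protein-coding genes (44 lower, 2 higher) and -0.45 over the 25 others (9 lower, 0 higher), a difference that was not tested.

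The shift was not even along the chromosome. When the genes were ordered by position, 3 stretches stood apart, and since their limits were set after the values were seen they are described without a test. The proximal stretch, from NUP43 to ZDHHC14, holds 35 genes with a median log2 fold change of -0.19 (87.5% of WT), 10 called lower and 2 called higher. The middle stretch, from SNX9 to PDE10A, holds 29 genes with a median of -1.13 (45.8% of WT), and 28 of them were called lower. In the distal stretch, from LINC00473 to PDCD2, the median over 30 genes was -0.46 (72.5% of WT), and 15 were called lower and 0 higher. Of all genes tested, 18.4% were called lower and 17.8% higher. The stretches lie in a region chosen for lower RNA, so nothing is read from their counts against these shares. The medians of protein-coding and other genes were -0.20 and 0.03 in the proximal, -1.18 and -0.98 in the middle and -0.46 and -0.56 in the distal stretch.

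**Figure D1:**
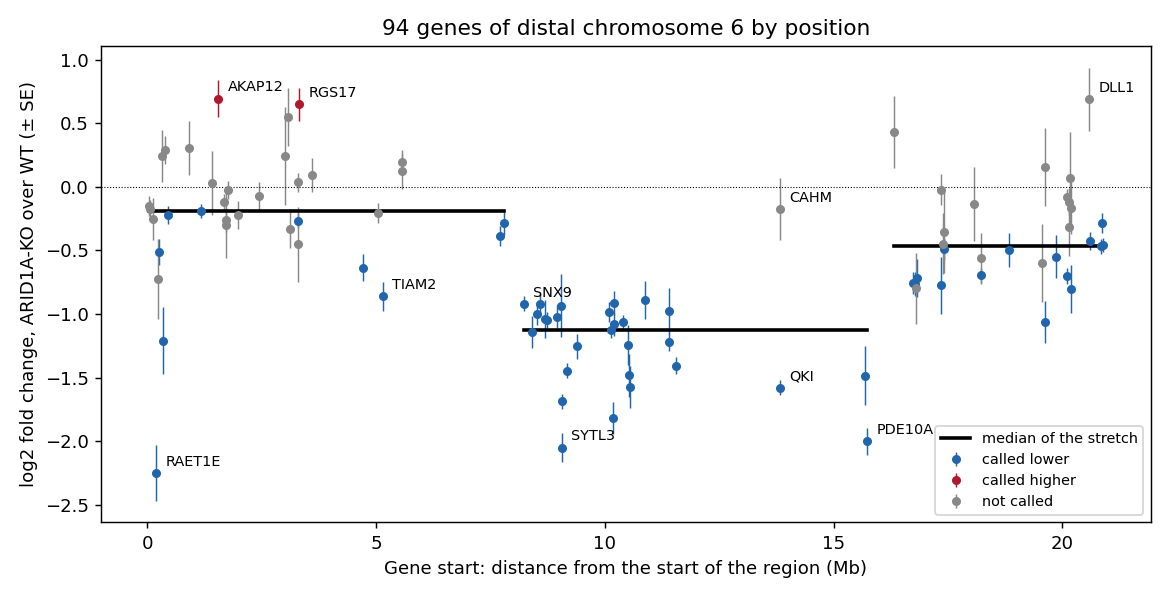
The log2 fold change of each of the 94 genes (ARID1A-KO over WT, points, with the SE as bars) is plotted against the distance of its start from the start of the region in Mb, with the median of each stretch as a black line. The 29 genes of the middle stretch all lie below 0, at a median of -1.13. The stretches on either side have higher medians, -0.19 in the proximal and -0.46 in the distal stretch.

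The median of each stretch was also taken in each sample. The limits of the stretches were set on these same samples. Low ARID1A-KO medians and steps between stretches were therefore largely built in, and the values only describe the spread between samples. Relative to the WT mean, the median gene of the middle stretch stood at -1.11, -1.12 and -1.11 on the log2 scale in the 3 ARID1A-KO samples, and at 0.00, 0.01 and -0.02 in the 3 WT samples. In the distal stretch the ARID1A-KO samples stood at -0.47, -0.46 and -0.47, and in the proximal stretch at -0.14, -0.15 and -0.23. The ARID1A-KO samples lay below all WT samples in each stretch, and their spread within a stretch was under the distance between stretches. For the 869 other genes of chromosome 6, the medians of the ARID1A-KO samples were -0.00, -0.01 and -0.01.

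**Figure D2:**
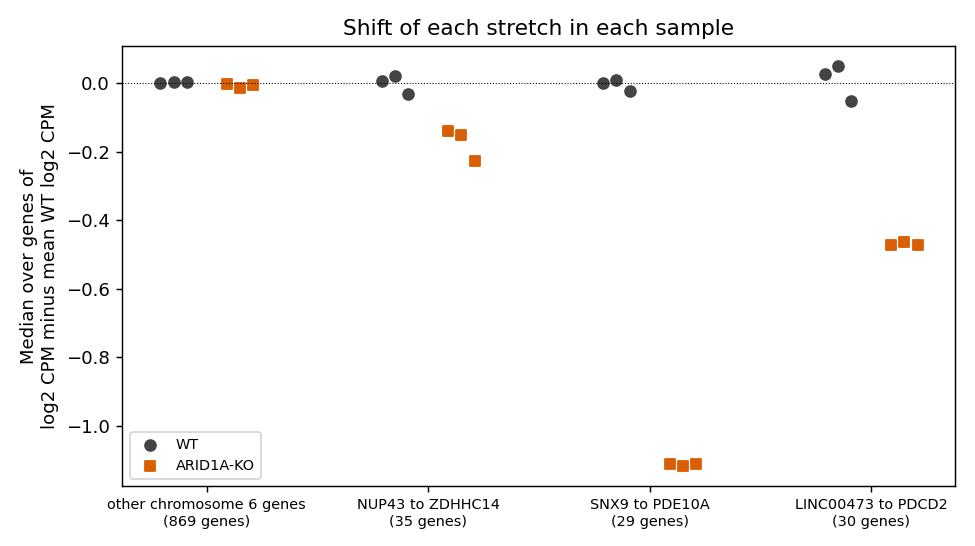
For each sample, the plot gives the median over genes of the log2 CPM minus the mean log2 CPM of the WT samples, with WT as circles and ARID1A-KO as squares. The ARID1A-KO samples sit at -1.12 to -1.11 in the middle stretch and close to 0 for the 869 other genes of chromosome 6.

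Windows of 5 Mb with at least 10 genes tested, 528 in the whole genome, were ranked from the lowest median log2 fold change. The region was chosen for its lower RNA, so nothing is read from the ranks or counts of its own windows. The chromosome 6 window from 160 to 165 Mb was at rank 3 (-1.23), with 17 of 18 genes called lower (18.4% of all genes). The window before it was at rank 10 (-0.92) and the window after it at rank 16 (-0.60). The last window, from 170 Mb, was at rank 50 (-0.30) and the first, from 150 Mb, at rank 85 (-0.19). The 2 lower windows lay on chromosomes 9 and 4, at -1.50 and -1.49, so such a shift was not found on chromosome 6 alone.

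The step from the proximal to the middle stretch lies between ZDHHC14, a protein acyltransferase, and SNX9, a sorting nexin of endocytosis. ZDHHC14 (ENSG00000175048.12) ends at 158099178 and SNX9 (ENSG00000130340.10) starts at 158244296, so 145117 bp lie between them. ZDHHC14 had 14.3, 15.8 and 14.7 CPM in WT and 11.5, 13.5 and 11.9 CPM in ARID1A-KO samples, a log2 difference of -0.29 (SE 0.09, adjusted p = 0.0361). SNX9 had 72.6, 75.1 and 72.2 CPM in WT and 39.5, 39.4 and 37.2 CPM in ARID1A-KO samples, a change of -0.92 (SE 0.06, adjusted p = 7.35e-06). In neither gene did the samples overlap between genotypes. This border was set on these values, and the difference between the 2 neighbors was not tested.

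At the other end of the middle stretch, PDE10A, a cyclic nucleotide phosphodiesterase, and the noncoding LINC00473 overlap on the same strand, so their reads may be shared and their values are uncertain. PDE10A (165740776 to 166400091, minus strand) fell from 25.4, 30.6 and 31.4 CPM to 7.67, 7.37 and 6.82 CPM, a log2 change of -2.001 (SE 0.10, adjusted p = 2.65e-06). LINC00473 had 1.42, 1.49 and 0.62 CPM in WT and 1.73, 1.57 and 1.51 CPM in ARID1A-KO samples and was not called (adjusted p = 0.270). The next genes along the chromosome, SFT2D1 at -0.76 and MPC1 at -0.76, were called lower.

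Genes of the middle stretch were split by TPM and by strand, and most were called lower in each part. The stretch was set on these values and holds only genes past the count limit. Each part was therefore bound to be low, and the split is a description. Of all genes tested, 18.4% were called lower. The 14 genes with the higher TPM had a median of -1.10 and 14 of them were called lower, and the 15 with the lower TPM had a median of -1.24 and 14 were called lower. On the plus strand 17 of 17 genes were called lower (median -1.13), and on the minus strand 11 of 12 (median -1.17).

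Per length, EZR and TCP1 had the highest levels of the middle stretch. EZR (ENSG00000092820.13, 159186773 to 159240444, minus strand) had 610, 611 and 608 CPM in WT and 223, 220 and 228 CPM in ARID1A-KO samples, a log2 difference of -1.45 (SE 0.06, adjusted p = 6.91e-07). Per length, EZR went from 804 ± 14.3 TPM to 299 ± 12.5 TPM (SD, n = 3). The gap between the genotypes was many times the spread within them. SYTL3, a synaptotagmin-like protein of vesicle docking that lies next to EZR, fell from 125, 172 and 156 CPM to 38.8, 36.9 and 33.8 CPM, a log2 change of -2.05 (SE 0.11, adjusted p = 3.59e-06), the largest decrease in the middle stretch. DYNLT1, a light chain of the dynein motor, lies on the opposite strand from SYTL3, and their starts are 5274 bp apart. DYNLT1 fell from 99.0, 99.0 and 102 CPM to 32.5, 29.8 and 30.8 CPM, a change of -1.69 (SE 0.06, adjusted p = 4.58e-07).

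ACAT2, TCP1 and MRPL18 lie side by side. ACAT2, a cytosolic thiolase of early sterol synthesis, overlaps TCP1 on the opposite strand by 615 bp. The start of TCP1 lies 62 bp from that of MRPL18, a protein of the mitochondrial ribosome encoded on the other strand. ACAT2 fell from 54.6, 47.8 and 62.9 CPM to 15.0, 13.8 and 18.0 CPM, a log2 change of -1.82 (SE 0.12, adjusted p = 1.04e-05). TCP1 fell from 831, 888 and 851 CPM to 439, 423 and 353 CPM, a change of -1.08 (SE 0.09, adjusted p = 2.64e-05). MRPL18 fell from 104, 126 and 119 CPM to 66.7, 63.4 and 55.1 CPM, a change of -0.91 (SE 0.09, adjusted p = 9.59e-05). All 3 genes fell without overlap, with ACAT2 moving further than its neighbors.

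QKI (163835032 to 163999628, plus strand) had 177, 165 and 164 CPM in WT and 55.5, 56.4 and 57.3 CPM in ARID1A-KO samples, a log2 difference of -1.58 (SE 0.06, adjusted p = 5.53e-07). CAHM, a noncoding gene on the opposite strand whose start lies 39 bp from that of QKI, was the only gene of the middle stretch not called. CAHM had 0.84, 0.73 and 0.57 CPM in WT and 0.62, 0.47 and 0.78 CPM in ARID1A-KO samples, a change of -0.17 (SE 0.25, adjusted p = 0.622). The CAHM samples overlapped between genotypes at these low counts.

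**Figure D3:**
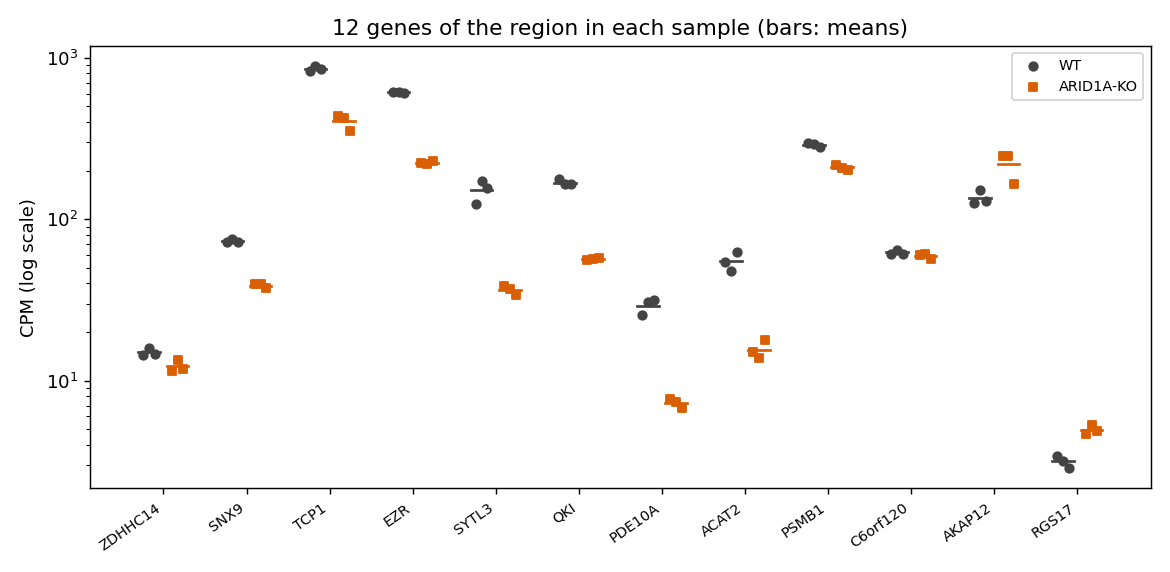
CPM on a log scale in each of the 3 WT samples (circles) and 3 ARID1A-KO samples (squares), with the mean of each group as a bar, is shown for 12 genes of the region. EZR falls from 610 to 224 CPM on average, C6orf120 differs little between genotypes (-0.08, not called), and AKAP12 and RGS17 are higher in all ARID1A-KO samples.

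To find genes that did not follow the region, the same fit was tested against the region's own median of -0.49 in place of 0. Of the 94 genes, 26 departed above this median, where 66.3% of all genes tested did, and 35 departed below it, where 6.53% did. In the proximal stretch 20 of 35 genes departed above and 3 below, and in the middle stretch 0 of 29 departed above and 27 below. In the distal stretch 6 departed above and 5 below. The limits of the stretches were set on the same values, so these counts only describe where such genes lie. The region's median of -0.49 lies between those of the proximal (-0.19) and middle (-1.13) stretches, so many departures restate the stretch of a gene. Genes that departed above the median are those whose RNA fell by less than the median, stayed near the WT level or rose in ARID1A-KO samples.

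Of these, AKAP12 and RGS17 were called higher than in WT. AKAP12 (ENSG00000131016.12, 151561134 to 151679692, plus strand), a scaffold that anchors protein kinase A, had 125, 151 and 130 CPM in WT and 247, 247 and 165 CPM in ARID1A-KO samples, a log2 difference of 0.69 (SE 0.15, adjusted p = 0.00557). RGS17 (ENSG00000091844.3, 153325594 to 153452384, minus strand), which switches off G protein signaling, had 3.40, 3.20 and 2.87 CPM in WT and 4.64, 5.35 and 4.89 CPM in ARID1A-KO samples, a change of 0.65 (SE 0.13, adjusted p = 0.00396). Both were higher in 3 of 3 ARID1A-KO samples, although replicate 5 of AKAP12 stood well below the other two.

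The other genes with the clearest departure above the median were not called against WT. MTRF1L, a mitochondrial release factor, had 30.9, 26.8 and 28.8 CPM in WT and 29.4, 29.4 and 29.8 CPM in ARID1A-KO samples (0.04, adjusted p = 0.741). The sign of its change turned without WT replicate 4, at -0.02. TFB1M, a methyltransferase of the mitochondrial ribosomal RNA, had 13.2, 16.17 and 14.4 CPM in WT and 17.8, 16.9 and 15.3 CPM in ARID1A-KO samples (0.19, adjusted p = 0.166). In both genes the samples of the genotypes overlapped.

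C6orf120 is such a gene within the distal stretch, where it overlaps PHF10 on the opposite strand. C6orf120 had 61.2, 64.6 and 61.0 CPM in WT and 59.97, 60.7 and 56.5 CPM in ARID1A-KO samples (-0.08, adjusted p = 0.355), and although the genotypes did not overlap, the gap between them was smaller than the spread within either. PHF10, a subunit of the PBAF form of the BAF complex, fell from 78.8, 72.8 and 72.1 CPM to 45.4, 45.2 and 47.0 CPM, a log2 change of -0.70 (SE 0.06, adjusted p = 4.04e-05). The counts were taken by strand, which keeps reads of these 2 genes apart.

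Another pair at the end of the chromosome parted in the same way. DLL1, a Notch ligand, lies on the opposite strand from FAM120B, a coactivator of nuclear receptors, and their starts are 229 bp apart. DLL1 had 0.69, 0.69 and 0.52 CPM in WT and 0.90, 1.38 and 0.83 CPM in ARID1A-KO samples, with no overlap and a log2 fold change of 0.69 that missed the threshold (SE 0.25, adjusted p = 0.0566). It passed in 4 alternatives, at 0.70 with unstranded counts, 0.68 with no filter on low counts, 0.69 with the replicate block and 0.83 without ARID1A-KO replicate 5. FAM120B fell from 40.2, 46.3 and 42.9 CPM to 32.4, 32.8 and 31.1 CPM, a change of -0.43 (SE 0.07, adjusted p = 0.00151).

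The NKG2D ligands at the proximal end did not move as a block. Of the 5 ligands measured here, 3 were called lower and 0 higher, against 18.4% and 17.8% of all genes tested. Their median log2 fold change was -0.73, and ULBP1 did not reach 10 counts in every sample. Since the region was chosen for its lower RNA, nothing about function is read from this count or those of the lists below. RAET1E fell from 5.83, 4.87 and 5.07 CPM to 0.94, 1.55 and 0.87 CPM, a log2 change of -2.25 (SE 0.22, adjusted p = 6.77e-05), the largest decrease among the 94 genes. RAET1L fell by 1.21 (SE 0.26, adjusted p = 0.00621) and ULBP2 by 0.51 (SE 0.10, adjusted p = 0.00430). RAET1G was at -0.73 and not called (adjusted p = 0.102), but was called with no filter on low counts (-0.73) and without ARID1A-KO replicate 5 (-1.07). ULBP3 had 5.55, 6.17 and 5.34 CPM in WT and 7.48, 6.81 and 6.61 CPM in ARID1A-KO samples, all of them above WT, and was not called (0.29, adjusted p = 0.0698). These genes are close copies of each other, so reads may have been split among them and their values are uncertain.

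Mitochondrial genes were called lower in 5 of 8 cases and higher in 0 (18.4% and 17.8% of all genes tested), with a median of -0.51. SOD2, the superoxide dismutase of the mitochondrial matrix, fell from 167, 165 and 168 CPM to 79.6, 79.1 and 93.99 CPM, a change of -0.98 (SE 0.08, adjusted p = 2.11e-05). SERAC1, which acts in phospholipid remodelling, fell by 0.996 (SE 0.09, adjusted p = 4.83e-05). MTHFD1L, of mitochondrial folate metabolism, had 103, 102 and 104 CPM in WT and 91.8, 91.3 and 86.8 CPM in ARID1A-KO samples (-0.19, SE 0.06, adjusted p = 0.0230). Although MTHFD1L did not overlap between genotypes, its call was lost when WT replicate 3 or 5 or any 1 of the ARID1A-KO samples was left out, with values of -0.20, -0.19, -0.20, -0.20 and -0.17. RMND1 was at -0.26 and not called (adjusted p = 0.0534), and was called in 4 alternatives, at -0.27 with DESeq2, with no filter on low counts and with the replicate block, and at -0.32 without ARID1A-KO replicate 3.

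Regulators of transcription, chromatin and RNA were lower in 6 of 9 cases and higher in 0 (18.4% and 17.8% of all genes tested). Their median was -0.70. WTAP, a subunit of the enzyme that writes m6A on RNA, fell from 149, 136 and 138 CPM to 66.2, 61.0 and 66.1 CPM, a change of -1.13 (SE 0.06, adjusted p = 4.06e-06). TULP4 fell by 1.05 (SE 0.06, adjusted p = 4.87e-06) and GTF2H5, the smallest subunit of the general factor TFIIH, a change of -0.92 (SE 0.07, adjusted p = 2.72e-05). ZBTB2 (-0.12), ESR1 (-0.22), the estrogen receptor alpha, and SCAF8 (-0.21) lie in the proximal stretch and were not called. SCAF8 was called without WT replicate 5, at -0.26.

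Among genes of actin, membranes and scaffolds, 7 of 10 were lower and AKAP12 was higher (18.4% and 17.8% of all genes tested). Their median was -0.78. SYNJ2, an inositol phosphatase, fell from 114, 90.6 and 106 CPM to 43.2, 41.6 and 55.9 CPM, a change of -1.14 (SE 0.12, adjusted p = 0.000134). TIAM2, an exchange factor for Rac, fell by 0.86 (SE 0.11, adjusted p = 0.000442) and CNKSR3, a scaffold, a change of -0.63 (SE 0.11, adjusted p = 0.00180), both next to genes of the proximal stretch that were not called. TIAM2 shares a strand with SCAF8, which it overlaps, so their reads may be shared. MLLT4, now named AFDN, the junction protein afadin, fell from 210.6, 214 and 197 CPM to 128, 130 and 126 CPM, a change of -0.70 (SE 0.06, adjusted p = 3.26e-05). SYNE1, the nuclear envelope spectrin nesprin, had 243, 319 and 238.5 CPM in WT and 269, 260 and 232 CPM in ARID1A-KO samples and was not called (-0.07, adjusted p = 0.651). Its sign turned to 0.07 without WT replicate 4.

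Kinases and signaling genes were called in 5 of 5 cases, 4 lower and RGS17 higher (18.4% and 17.8% of all genes tested). MAP3K4, a kinase upstream of p38 and JNK, fell from 90.5, 93.9 and 84.6 CPM to 40.3, 39.5 and 35.7 CPM, a change of -1.22 (SE 0.07, adjusted p = 4.39e-06). IGF2R, the receptor that clears insulin-like growth factor 2, fell from 387, 394 and 394 CPM to 185, 192 and 186 CPM, a change of -1.06 (SE 0.06, adjusted p = 2.82e-06). IGF2R overlaps noncoding genes on its own strand, which may take some of its reads. RPS6KA2, a ribosomal S6 kinase of the distal stretch, fell by 0.72 (SE 0.15, adjusted p = 0.00460). The acyltransferase AGPAT4, an enzyme of phospholipid synthesis, fell from 31.3, 32.4 and 31.7 CPM to 11.8, 12.2 and 12.01 CPM, a change of -1.41 (SE 0.07, adjusted p = 1.98e-06).

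Genes of protein folding and turnover were lower in 3 of 4 cases and higher in 0 (18.4% and 17.8% of all genes tested). Their median was -0.37. Besides TCP1 and PSMB1, FBXO5, an inhibitor of the anaphase-promoting complex, fell from 52.9, 54.1 and 51.3 CPM to 43.2, 43.5 and 45.0 CPM, a change of -0.27 (SE 0.06, adjusted p = 0.00658). PCMT1, a repair enzyme for damaged aspartyl residues, was at -0.17 and not called (adjusted p = 0.0716).

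Of 4 secreted and matrix genes, 1 was called lower and 0 higher, with a median of 0.35, and 18.4% of all genes tested were called lower. SMOC2, a matricellular protein, fell by 0.50 (SE 0.13, adjusted p = 0.0171), and missed the threshold without WT replicate 3 (-0.48) or ARID1A-KO replicate 3 (-0.46). THBS2 (0.16, adjusted p = 0.730), VIP (0.55, adjusted p = 0.0890) and DLL1 were not called, and each had a low level. With counts taken regardless of strand, THBS2 turned to -0.55 (adjusted p = 0.0233), and without WT replicate 3 it stood at -0.01.

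A list of 10 genes at the far end, between WDR27 and PDCD2, was lower in 6 cases and higher in 0. Of all genes tested, 18.4% were called lower and 17.8% higher. The median of the list was -0.37. Of the 3 other genes of this interval, which the list left out, LINC00242 was called lower (-0.81, SE 0.19, adjusted p = 0.00915), and LINC00574 (-0.16) and RP1-266L20.9 (0.07) were not called. PDCD2, a factor of ribosome assembly, fell from 144, 156 and 154 CPM to 111, 111 and 109 CPM, a change of -0.46 (SE 0.06, adjusted p = 0.000310), which is close to the median of the whole region. WDR27 had 24.6, 37.4 and 23.2 CPM in WT and 20.3, 20.3 and 17.6 CPM in ARID1A-KO samples (-0.55, SE 0.17, adjusted p = 0.0289). Its call was lost when any 1 of ARID1A-KO replicates 3, 4 and 5 was left out, at -0.58, -0.58 and -0.48.

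Several genes of the region encode subunits of assemblies whose other subunits are encoded outside it, which allows each to be set beside its partners in the same samples. For the CCT chaperonin, which folds actin and tubulin, TCP1 changed by -1.08, and 0 of 7 partners were called, between -0.18 and 0.02 with a median of -0.06. In the m6A writer, WTAP changed by -1.13, and of 7 partners RBM15 was called higher (0.26) and the median was 0.02. For TFIIH, which opens DNA at promoters and in repair, GTF2H5 changed by -0.92, and of 9 partners CCNH was lower (-0.26), CDK7 was higher (0.18) and the median was 0.09. The partners of these 3 subunits were measured near 0, and each changed less than the subunit from the region. Because the region was chosen for lower RNA, the larger fall of its subunits was largely set in advance, and nothing is read from it.

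PSMB1, a subunit of the beta ring of the proteasome, fell from 297, 292 and 278.5 CPM to 216, 208 and 203 CPM, a change of -0.47 (SE 0.06, adjusted p = 0.000309). Of its 6 partners PSMB5 was higher (0.28), 0 were lower and the median was 0.00. TBP fell by 0.29 (SE 0.08, adjusted p = 0.0182), a call that was lost without WT replicate 4 (-0.23) or ARID1A-KO replicate 3 (-0.29). Of the 13 partners of TBP in TFIID, TAF5 (0.61), TAF10 (0.29) and TAF9 (0.18) were higher, 0 were lower and the median was 0.10. NUP43, which lies in the proximal stretch, was at -0.15 and not called (adjusted p = 0.167). Of its 8 partners in the Y complex of the nuclear pore, SEH1L was lower (-0.31) and the median was -0.02.

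The remaining sets have few members, and the ERM proteins were listed as paralogs rather than as subunits of an assembly. MPC1 of the mitochondrial pyruvate carrier fell from 18.0, 16.19 and 18.8 CPM to 9.72, 10.2 and 11.3 CPM, a change of -0.76 (SE 0.10, adjusted p = 0.000293), while its partner MPC2 was at -0.20 and not called (adjusted p = 0.129). Among the ERM proteins, RDX (-0.27, adjusted p = 0.00900) and MSN (-0.88, adjusted p = 0.000200), the paralogs of EZR, were both called lower. The differences between a subunit and its partners were not tested on their own.

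**Figure D4:**
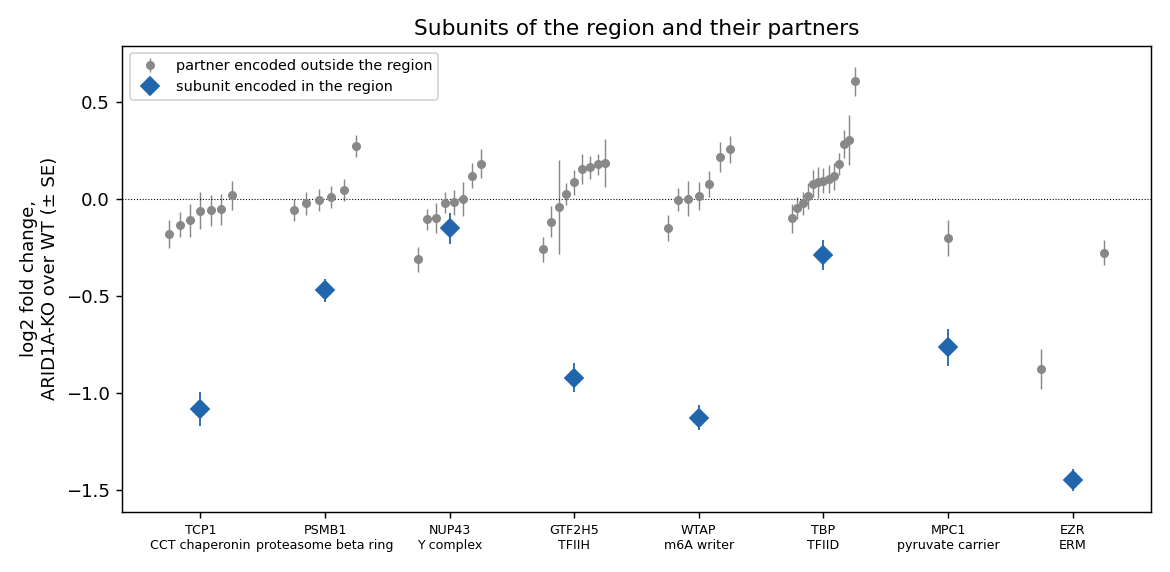
The log2 fold change (ARID1A-KO over WT, with the SE as bars) is shown for 8 genes of the region (diamonds) and for the partners of each that are encoded outside it (circles). For EZR the circles are its paralogs. TCP1, WTAP and GTF2H5 lie at -1.08, -1.13 and -0.92 with their partners near 0, whereas NUP43 lies within the range of its partners.

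The count limit kept some genes of the region out. Of the 242 other genes, 121 had 0 counts in every sample and 34 reached 10 counts in at least 1 sample. Counts of 10 or more in all WT samples were found in 12 of them and in all ARID1A-KO samples in 4, so the limit can remove genes that were high in 1 genotype only. Just inside the limit, the lowest counts of RP1-168L15.5 and RP1-266L20.9 were 10 and 11, and just outside it, those of FNDC1 and RP11-230C9.2 were 9 and 8. The clearest gene left out was C6orf99, in the interval of the middle stretch, with 321, 370 and 370 counts in WT and 6, 4 and 13 counts in ARID1A-KO samples. C6orf99 was chosen for mention after its values were seen.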

How the data were processed

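RNA of 3 WT and 3 ARID1A-KO samples was sequenced from paired-end stranded libraries. The authors aligned the reads to GRCh37 with STAR and counted them per gene with featureCounts in the Roddy workflow, against a GENCODE annotation. The deposited tables hold whole-number counts per gene without normalization, and the reverse-stranded counts were used. The deposited TPM values were treated as a signal, since the authors scaled them to the autosomal genes only. The deposited FPKM values and the forward-strand counts were not used.

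Counts of all genes were filtered with filterByExpr, scaled by TMM and compared with edgeR's quasi-likelihood test (edgeR 4.0.16, R 4.3.3) in 1 fit of all 6 samples without covariates. P-values were adjusted by Benjamini-Hochberg over 19599 genes, and an adjusted p under 0.05 is called. The common biological coefficient of variation was 0.111, and replicates of a genotype differed by more than counting noise (a chi-square of 7.57 to 32.9 after division by the number of genes). Departure from the region's median was tested in the same fit, with that median as an offset of the ARID1A-KO samples. CPM are TMM-scaled. The fit was tested on simulated data with known changes.

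Genes named are ARID1A, the largest changes in each direction among called genes, the clearest departures above the median and the genes with the highest TPM. Others are those nearest the median, genes of 8 assemblies or families, members of lists by role or position, and those nearest the count limit. The region, its genes and these lists were chosen with earlier results of these data known. Genes named outside this rule (SFT2D1, ZDHHC14, CAHM, LINC00473 and C6orf99) were added after their values were seen, as were the 3 stretches. Alternatives were unstranded counts, RLE scaling, DESeq2 1.42.0, a limit of 10 counts, no filter, a replicate block, leaving out each sample, a stricter adjusted p of 0.01, later starts of the region and genes with a mean log2 CPM over 1. Promoters came from RefSeq (GRCh38.p14), and gene coordinates are those of the deposited tables. Results of some genes of the interval are not reported here.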

Additional observations from a re-analysis of the deposited data

Results flagged for a closer look

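Genes of the region below the count limit were not compared in the report. Of them, 16 had enough counts for the fit, and 9 were called lower and 2 higher in ARID1A-KO than in WT samples by edgeR's quasi-likelihood test, with a median log2 fold change of -1.52. A gene that was tested only because it was high in 1 genotype had to differ, so nothing is read from this count, and the 2 genes called higher are given here. RP11-193H22.2, a pseudogene on chromosome 6 from 157998119 to 158003309 on the minus strand, inside ZDHHC14 on the opposite strand, had 0 counts in each WT sample and 22, 13 and 26 counts in the ARID1A-KO samples. Its mean was 0.290 ± 0.0448 CPM of all counts in ARID1A-KO samples (SD, n = 3), at least 19.2-fold higher than the limit that a count of 0 allows, taken as 3 counts over the WT group.

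FNDC1, a gene with fibronectin domains, lies in the interval of the middle stretch, where no gene that met the count limit had a positive log2 fold change. It had 9, 17 and 14 counts in WT and 31, 19 and 57 counts in ARID1A-KO samples, or 0.201 ± 0.0576 and 0.493 ± 0.168 CPM of all counts (SD, n = 3). By edgeR's quasi-likelihood test it was higher by 1.26 on the log2 scale (adjusted p = 0.0167), with no overlap between genotypes.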

How the results depend on the processing

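The median log2 fold change of the 94 genes stayed negative in every alternative. It ranged from -0.551 to -0.480 when a sample was left out, with the lowest value without ARID1A-KO replicate 5. It was -0.774 and -0.701 with starts 5 and 10 Mb further on, -0.548 for genes with a mean log2 CPM over 1, and -0.192, -1.13 and -0.464 in the proximal, middle and distal stretches. Of 55 called genes, 28 were in the middle stretch, and 46 were called under every other fit. The number called was between 49 and 58 over the other fits and 47 at an adjusted p under 0.01, and between 54 and 65 genes departed from the median against 61.

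With the replicate block 57 genes were called, 54 lower and 3 higher, and 65 departed. Same-numbered samples correlated at -0.177, 0.268 and 0.180, so the numbers were not taken to pair samples.

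Of the 39 named genes that were called, 35 kept their call under every fit, and MTHFD1L, SMOC2, TBP and WDR27 lost it when a sample was left out, while RAET1G, RMND1, SCAF8, PLEKHG1, DLL1 and THBS2 gained one under at least 1 alternative. The sign turned for MTRF1L and SYNE1 without WT replicate 4 and for THBS2 without WT replicate 3, with ranges over the samples left out of -0.016 to 0.078, -0.1502 to 0.074 and -0.010 to 0.537, and THBS2 turned to -0.545 with unstranded counts. Of these, 0 of 3 were called in the fit reported. The cause was not tested. Low counts limit the noncoding genes and the genes near the count limit, and reads of overlapping same-strand genes cannot be told apart.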
